A study of Homo sapiens with 6 samples.

Results

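The genes described here encode the machinery that cuts and polyadenylates the ends of pre-mRNAs and releases RNA polymerase II from the template. They are 33 genes of 45372 in the deposited tables, and all 33 were found by symbol. The set was chosen by function, on earlier results of the same mimic and control libraries, in which PCF11 and PPP1R10 stood among the falling genes. The TPM values of these 2 genes therefore led to the set, and every mimic against control value of a member is given as a description that supports nothing.

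The cells were HUVECs, primary endothelial cells of the human umbilical vein, labelled wild type and passaged before use. In the mimic group (3 libraries) a miR-409-3p mimic at 50 nM was transfected with a lipid reagent, and in the control group (3 libraries) a non-specific control RNA was transfected with the same reagent. RNA was taken from both groups at 48 h, and all 6 titles also call the cells non treated without saying which treatment is meant. The labels call the replicates biological and do not say whether they came from separate cultures or donors, so the error terms measure only the spread between these libraries. TPM is a read count per gene length, set to a common sum for every library, so levels can be compared between genes. The estimated depth was 29800000 to 35800000 assigned reads per library, and a member had an estimated 453 to 9602 reads in a library. All 8 endothelial markers were present in every library, with a summed level of 4618 to 4832 TPM in control and 4939 to 5015 TPM in mimic libraries, so the groups did not overlap on this sum. Of the 8 markers, 0 had an adjusted p under 0.05 in limma, where 0.132% of tested genes did as higher and 0.300% as lower. The part of this sum in the members' values was not tested. In such bulk RNA fewer cells of a type and less RNA per cell cannot be told apart. Smooth muscle markers (4 genes) summed to at most 0.202 TPM, leukocyte markers (4 genes) to at most 0.522 TPM with PTPRC and CD3E at 0, and erythroid markers (2 genes) to 0. Fibroblast markers (5 genes) summed to 9.27 to 11.8 TPM and epithelial markers (3 genes, KRT5 at 0) to 1.58 to 2.66 TPM, with overlapping groups.

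Most pre-mRNAs are cut a short distance after a polyadenylation signal. The cleavage and polyadenylation specificity factor (CPSF) reads the signal and makes the cut, the cleavage stimulation factor (CSTF) binds downstream of it, and cleavage factors I and II (CFI and CFII) help choose and activate the site. Poly(A) polymerase then adds the tail, while phosphatases such as PNUTS-PP1 slow the polymerase and the exonuclease XRN2 degrades the downstream RNA, which ends transcription. Levels of these factors are known to shift which of several sites in a gene is used, a readout that gene-level TPM does not hold.

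The mature sequence of the transfected microRNA is shown because its seed, bases 2 to 8 (capitals), pairs with the sites searched in the members. It is encoded at chr14:101065346-101065367 on the plus strand (RefSeq, GRCh38.p14).

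hsa-miR-409-3p: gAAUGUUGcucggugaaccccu

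The seed match CAACATT (7mer-m8), the same followed by A (8mer) or AACATTA (7mer-A1) occurred in the longest annotated 3′ UTR of 9 of 33 members, 27.3%, against 22.8% of 11852 tested protein-coding genes with a UTR of at least 30 bases (GENCODE 29). The members' UTRs were longer, with a median of 2187 against 1383 bases. An 8mer was found in 4 members, CSTF3, NUDT21, PAPOLG and PPP1CC. Their sites are shown with up to 8 flanking bases because this is the longest of the seed matches searched, with the match in capitals.

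CSTF3: agttgcaaCAACATTAaaacagtt
NUDT21: tttttgtaCAACATTAaagaaaat
PAPOLG: caatgagtCAACATTAgagtcctc
PPP1CC: atagctatCAACATTAggagtaac

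Of these 4 genes 0 were called, where 0.300% of tested genes were called lower and 0.132% higher, so nothing is read from this count. PAPOLG had a log2 fold change of -0.49 (SE 0.09), CSTF3 of -0.08 (SE 0.07), NUDT21 of 0.02 (SE 0.06) and PPP1CC of 0.03 (SE 0.05). PCF11 held only 6mers (AACATT, 2 matches) in a UTR of 2557 bases, and PPP1R10 held none of the 4 site types in 1149 bases. CPSF2 and CPSF6 each held 2 7mer-m8 sites and had log2 fold changes of 0.02 (SE 0.06) and 0.05 (SE 0.05). A match is a description of letters and not a shown target. The pentamer ATTTA, which occurs in elements that shorten mRNA life, was found 6 times in the UTR of PCF11 (2.35 per kb), 14 times in PAPOLG (2.84 per kb) and once in PPP1R10 (0.870 per kb). The median was 2.15 per kb over the members and 1.72 per kb over all searched genes.

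Of the 33 genes, 2 passed the test between mimic and control cells. PCF11 and PPP1R10 fell to 63.4% and 61.9% of the control level, and PAPOLG measured 69.3% of it without passing the threshold. The other 30 members had log2 fold changes from -0.12 (SCAF4) to 0.06 (SCAF8), with standard errors of 0.05 to 0.08. Their measured levels stayed within 91.4% and 104.5% of control. Fold changes compare mimic with control as log2(TPM + 1), negative where mimic cells were lower, and called means an adjusted p under 0.05 in limma over all 13680 tested genes. All 33 members passed the filter of at least 1 TPM in at least 3 libraries. By this rule 2 of 33 members were called lower, where 0.300% of tested genes were, and 0 were called higher, where 0.132% were. At an unadjusted limma p under 0.05, 3 members were lower and 0 higher (7.64% and 3.05% of tested genes). In 6 members the 3 mimic values were all below the 3 control values, and in 0 all above (10.5% and 5.16% of tested genes). Because the members were chosen from this contrast, nothing is read from these shares. The same holds for the counts of called members by role group below, beside which the same shares of tested genes stand.

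**Figure D1:**
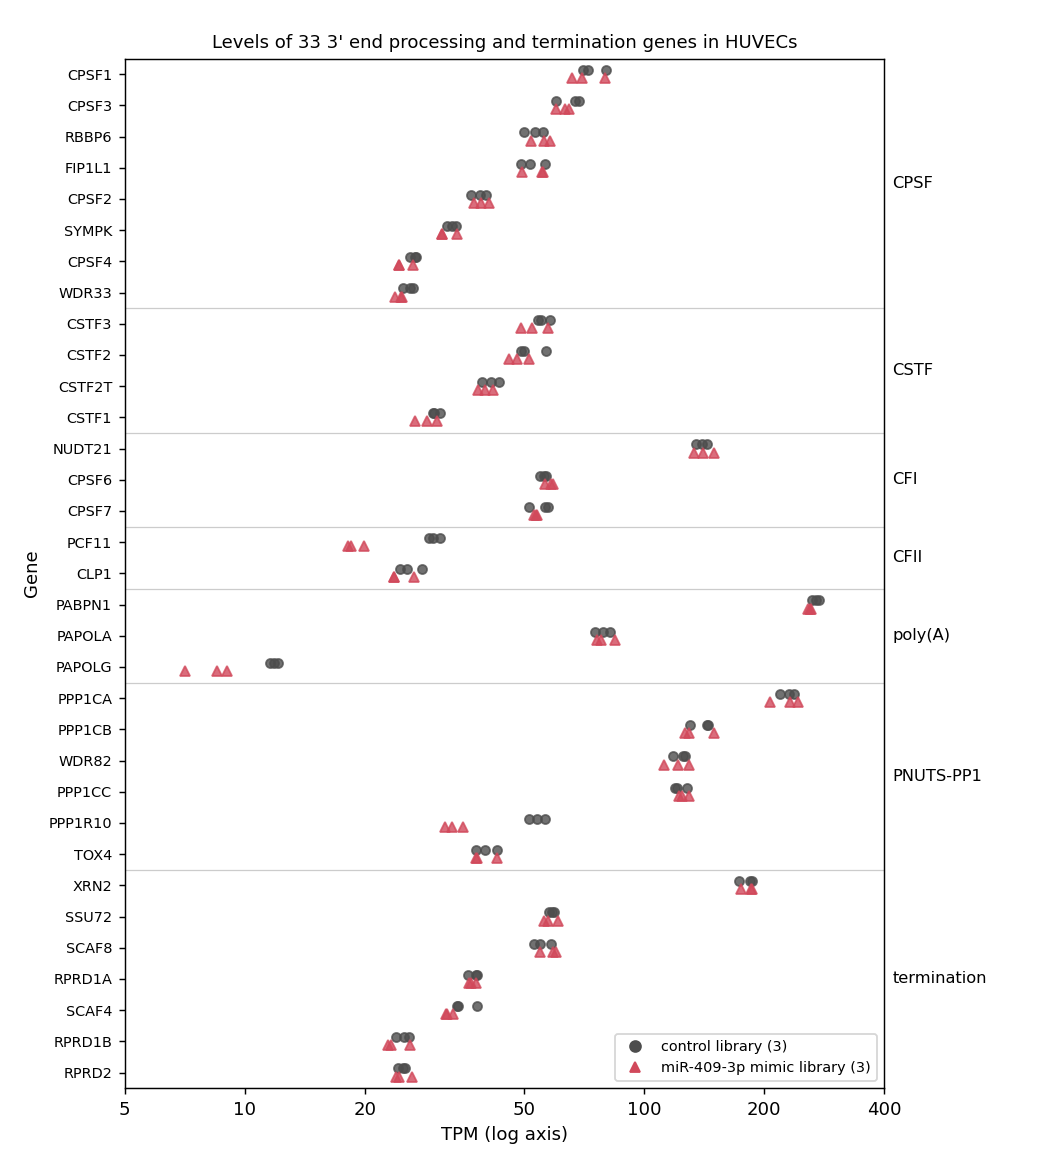
TPM (log axis) of each member in the 3 control (circles) and 3 mimic (triangles) libraries, by role. PCF11, PPP1R10 and PAPOLG stand apart from their controls, and the other genes lie close together or overlap.

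PCF11 (ENSG00000165494, chr11:83156988-83187451, plus strand, GRCh38), the CFII subunit that binds the tail of RNA polymerase II and links cleavage to termination, measured 28.9, 29.6 and 30.8 TPM in control libraries 1 to 3 and 19.9, 18.2 and 18.5 TPM in mimic libraries 1 to 3. The lowest control library was well above the highest mimic library. The means were 29.7 ± 0.941 and 18.9 ± 0.933 TPM (SD, n = 3 each), a log2 fold change of -0.63 (SE 0.06), and PCF11 was called lower. PCF11 was called in 12 of 13 alternative settings, the exception being the replicate number as a block. Its exons share bases with 3 other annotated genes, of which PCF11-AS1 on the opposite strand covers 15.2% of them, and whether counting used strand is not given in the sources used here. PCF11-AS1 measured 0 to 0.567 TPM, ANKRD42-DT 0.816 to 1.75 TPM and the unnamed ENSG00000254676 0.133 to 0.815 TPM, with overlapping groups in each.

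CLP1, the other CFII subunit and an RNA kinase that also serves in tRNA splicing, had 25.9 ± 1.75 TPM with control and 24.6 ± 1.64 TPM with mimic (n = 3), and its groups overlapped. The level of PCF11 was 1.14, 1.21 and 1.10 times that of CLP1 in the control libraries and 0.752, 0.767 and 0.784 times in the mimic libraries. In control cells PCF11 was thus the more abundant of the pair, and in mimic cells CLP1 was.

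PPP1R10 (ENSG00000204569, chr6:30600400-30618612, minus strand), which encodes PNUTS, the subunit that holds protein phosphatase 1 on chromatin, measured 51.5, 53.9 and 56.4 TPM in control and 33.004, 31.8 and 35.3 TPM in mimic libraries 1 to 3. All mimic libraries were far below all control libraries. The means were 53.9 ± 2.47 and 33.4 ± 1.78 TPM (SD, n = 3 each), with a log2 fold change of -0.68 (SE 0.06), and PPP1R10 was called lower. It was called in all 13 alternative settings run, and its log2 fold change lay between -0.72 and -0.64 in them. Its exons share bases with 0 other annotated genes.

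The partners of PNUTS had smaller differences, and 0 of 5 were called. WDR82, a WD-repeat protein that binds the polymerase tail, had 123.6 ± 4.46 TPM with control and 121.4 ± 8.66 TPM with mimic, and TOX4, the DNA-binding partner, 40.2 ± 2.50 and 39.6 ± 2.76 TPM (n = 3). For each, the log2 fold change was smaller than its standard error, at -0.03 (SE 0.06) and -0.02 (SE 0.07). The catalytic subunits PPP1CA, PPP1CB and PPP1CC, which serve many other PP1 complexes too, had log2 fold changes of -0.01 (SE 0.07), -0.05 (SE 0.08) and 0.03 (SE 0.05). PPP1CA gave 46.6 ± 1.37% of the TPM of the 3 catalytic genes in control and 46.6 ± 3.62% in mimic cells. The summed catalytic level was 8.60 to 9.45 times that of PPP1R10 in control libraries and 14.0 to 15.3 times in mimic libraries, so these ranges did not overlap.

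PAPOLG (ENSG00000115421, chr2:60756230-60802085, plus strand), a nuclear poly(A) polymerase closely related to PAPOLA, was the member with the lowest level. It measured 11.9, 11.5 and 12.1 TPM in control and 8.52, 9.01 and 7.06 TPM in mimic libraries 1 to 3. Mimic library 3 was the lowest, and all 3 were below every control library. The means were 11.8 ± 0.273 and 8.20 ± 1.02 TPM (SD, n = 3 each), with a log2 fold change of -0.49 (SE 0.09). PAPOLG was not called, except with a filter of 5 TPM, where fewer genes are tested. It had an estimated 453 to 890 reads per library, the fewest among the 3 genes.

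PAPOLA, the main nuclear poly(A) polymerase, measured 78.8 ± 3.37 and 79.7 ± 4.36 TPM (n = 3), and its level was 6.36 to 6.84 times that of PAPOLG in control and 9.18 to 10.8 times in mimic libraries. PABPN1, which coats nuclear tails and sets their length, was the most abundant member. It measured 264.2, 269.7 and 274.9 TPM in control and 262.4, 257.8 and 261.2 TPM in mimic libraries 1 to 3. The groups did not overlap, yet the log2 fold change was -0.05 (SE 0.05) and PABPN1 was not called. The readthrough gene BCL2L2-PABPN1, which shares 16.8% of its exon bases on the same strand, measured 23.8 ± 6.15 and 25.8 ± 7.16 TPM, and how shared reads were assigned is not given.

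**Figure D2:**
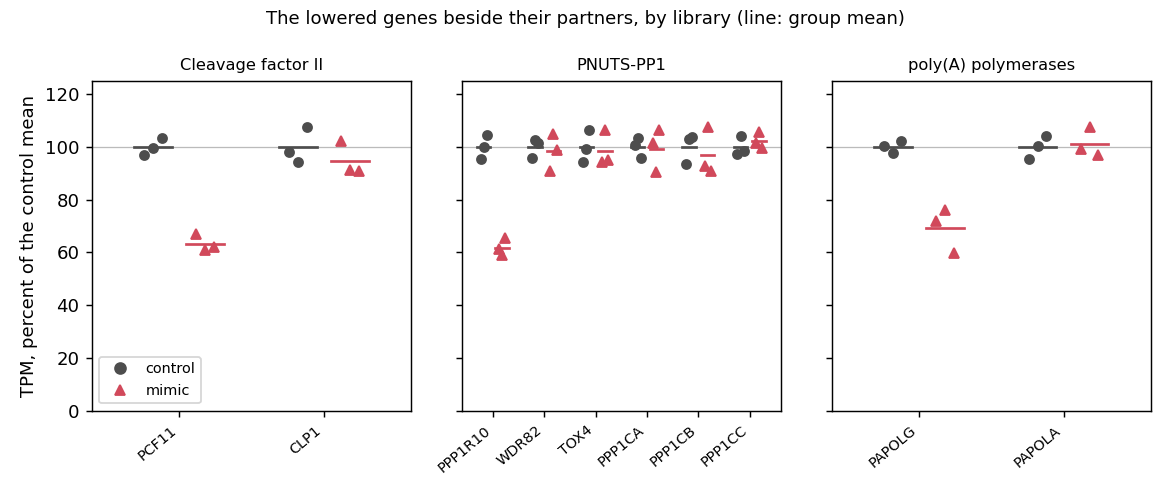
TPM of each gene in every library as a percent of its control mean, for CFII, PNUTS-PP1 and the poly(A) polymerases, with a line at each group mean. PCF11, PPP1R10 and PAPOLG sit at 63.4%, 61.9% and 69.3% of control, while their partners lie around the control mean.

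The promoters of PCF11, PPP1R10 and PAPOLG are shown because these 3 genes had the lowest fold changes among the members. Each runs from 250 bases before to 50 after a RefSeq start (GRCh38.p14), at chr11:83156881-83157180 (plus), chr6:30617194-30617493 (minus) and chr2:60756018-60756317 (plus). Capitals mark the CCAAT box, the GC box (letters GGGCGG) and the TATA box (letters TATAAA) on either strand.

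PCF11: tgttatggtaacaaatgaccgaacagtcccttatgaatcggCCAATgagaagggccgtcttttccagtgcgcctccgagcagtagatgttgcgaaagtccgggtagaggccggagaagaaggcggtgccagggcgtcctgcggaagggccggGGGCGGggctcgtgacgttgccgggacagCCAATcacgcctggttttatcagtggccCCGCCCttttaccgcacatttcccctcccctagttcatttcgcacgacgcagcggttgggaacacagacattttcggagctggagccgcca
PPP1R10: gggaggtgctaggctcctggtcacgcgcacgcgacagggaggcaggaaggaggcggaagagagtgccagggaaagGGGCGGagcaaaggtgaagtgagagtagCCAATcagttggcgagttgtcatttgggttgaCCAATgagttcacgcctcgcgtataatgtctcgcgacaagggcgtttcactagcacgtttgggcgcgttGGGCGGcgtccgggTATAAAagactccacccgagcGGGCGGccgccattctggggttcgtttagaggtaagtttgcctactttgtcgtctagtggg
PAPOLG: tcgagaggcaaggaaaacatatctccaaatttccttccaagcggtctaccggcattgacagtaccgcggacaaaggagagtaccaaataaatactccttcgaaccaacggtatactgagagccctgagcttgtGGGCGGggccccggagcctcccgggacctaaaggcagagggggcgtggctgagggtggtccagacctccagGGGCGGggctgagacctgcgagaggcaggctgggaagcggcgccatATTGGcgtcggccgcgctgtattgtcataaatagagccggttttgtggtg

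CCAAT occurred 2 times in the PCF11 window, 2 times in PPP1R10 and once in PAPOLG, and GGGCGG 2, 3 and 2 times. Over all 35116 windows of this length, 34.6% held CCAAT and 45.0% held the letters GGGCGG on either strand. The table held 38 windows for 30 of the members, of which 16 held CCAAT and 26 GGGCGG. The TATA box, found in 11.5% of all windows, was present in 1 of the 38, that of PPP1R10. The CRE letters TGACGTCA occurred in 7 member windows, 18.4%, against 1.85% of all. They belonged to CSTF1, CSTF3, RBBP6, RPRD1A, WDR82 and XRN2 (in more than 1 window), with 0 in the 3 genes above. CRE is named as the widest contrast among the motifs searched. The others searched were ETS (CCGGAAG, 18.4% against 10.3%), YY1 (AAGATGG, 13.2% against 5.84%) and NRF1 (GCATGCGC, 5.26% against 3.05%). The windows of all genes were not limited to tested genes or matched in GC content. The GC content of these 3 windows was 59.3%, 58.7% and 58.7%, below the median of 65.8% over the 38 and close to 58.7% over all.

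In CPSF, the complex that cuts the RNA, 0 of 8 members were called, and log2 fold changes were small, from -0.08 to 0.06. CPSF3, the endonuclease that cuts the RNA, measured 65.5 ± 4.56 and 62.8 ± 2.48 TPM, and CPSF1, the large scaffold, 74.2 ± 5.25 and 72.0 ± 7.11 TPM (n = 3). CPSF4, a zinc finger protein that contacts the polyadenylation signal, had the largest change of the group. It measured 26.0, 26.7 and 26.9 TPM in control and 26.4, 24.3 and 24.3 TPM in mimic libraries, and the groups overlapped through mimic library 1 (log2 fold change -0.08, SE 0.06). WDR33, which reads the signal together with CPSF4, measured 24.9, 26.3 and 26.0 TPM in control and 23.7, 24.8 and 24.6 TPM in mimic libraries. The lowest control and the highest mimic library lay close together, with a log2 fold change of -0.07 (SE 0.06). FIP1L1, which brings in poly(A) polymerase, SYMPK, a scaffold, RBBP6, an activator of cleavage, and CPSF2, the inactive relative of CPSF3, had log2 fold changes of 0.03, -0.04, 0.06 and 0.02. FIP1L1 shares 27.7% of its exon bases with LNX1 on the opposite strand and 18.0% with ENSG00000282278 on the same strand. Over all role groups, 19 members share exon bases with another gene.

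In CSTF, 0 of 4 members were called, and all 4 fold changes were below 0, from -0.10 to -0.04, as they were with median-of-ratios and quantile scaling. CSTF2, the RNA-binding subunit, measured 49.3, 56.8 and 49.9 TPM in control and 48.0, 46.0 and 51.5 TPM in mimic libraries. Control library 2 was high and the groups overlapped (log2 fold change -0.10, SE 0.07). CSTF2T, an intronless retrocopy of CSTF2 on chromosome 10, gave 44.3 ± 1.21% of their joint TPM in control and 45.3 ± 2.23% in mimic cells, and reads of such similar genes may be split between them. CSTF3, the scaffold of the complex, and CSTF1, a WD-repeat subunit, measured 94.9% and 95.02% of control.

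In CFI, which marks distal sites, 0 of 3 members were called. NUDT21, the RNA-binding subunit, measured 139.6 ± 4.34 and 141.4 ± 7.94 TPM, more than 2 times the level of either of its larger partners. CPSF6 measured 55.0, 56.9 and 56.1 TPM in control and 56.4, 59.1 and 58.4 TPM in mimic libraries, with overlapping groups (log2 fold change 0.05, SE 0.05). CPSF7, its alternative partner, measured 55.2 ± 3.10 and 53.6 ± 0.586 TPM. The share of CPSF6 in their joint TPM was 49.4% to 51.6% in control and 51.6% to 52.4% in mimic libraries, nearly touching.

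Among 7 termination and polymerase-tail factors 0 were called. XRN2, the nuclease that degrades the RNA left after cleavage, measured 181.5 ± 7.15 and 182.9 ± 6.47 TPM (n = 3), with a log2 fold change of 0.01 (SE 0.05). SSU72, a phosphatase of the polymerase tail, measured 58.7 ± 0.936 and 58.2 ± 2.51 TPM. The tail-binding proteins RPRD1A, RPRD1B and RPRD2 measured 98.9%, 96.4% and 100.03% of control. Of the 7 fold changes 5 were below 0, and 2 were with median-of-ratios or quantile scaling. SCAF4, which with SCAF8 keeps the polymerase from using early sites, measured 34.0, 34.1 and 38.3 TPM in control and 31.9, 32.1 and 33.3 TPM in mimic libraries. Its groups did not overlap (log2 fold change -0.12, SE 0.06), and it was not called in any of the 13 alternative settings. SCAF8 had a log2 fold change of 0.06 (SE 0.06).

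**Figure D3:**
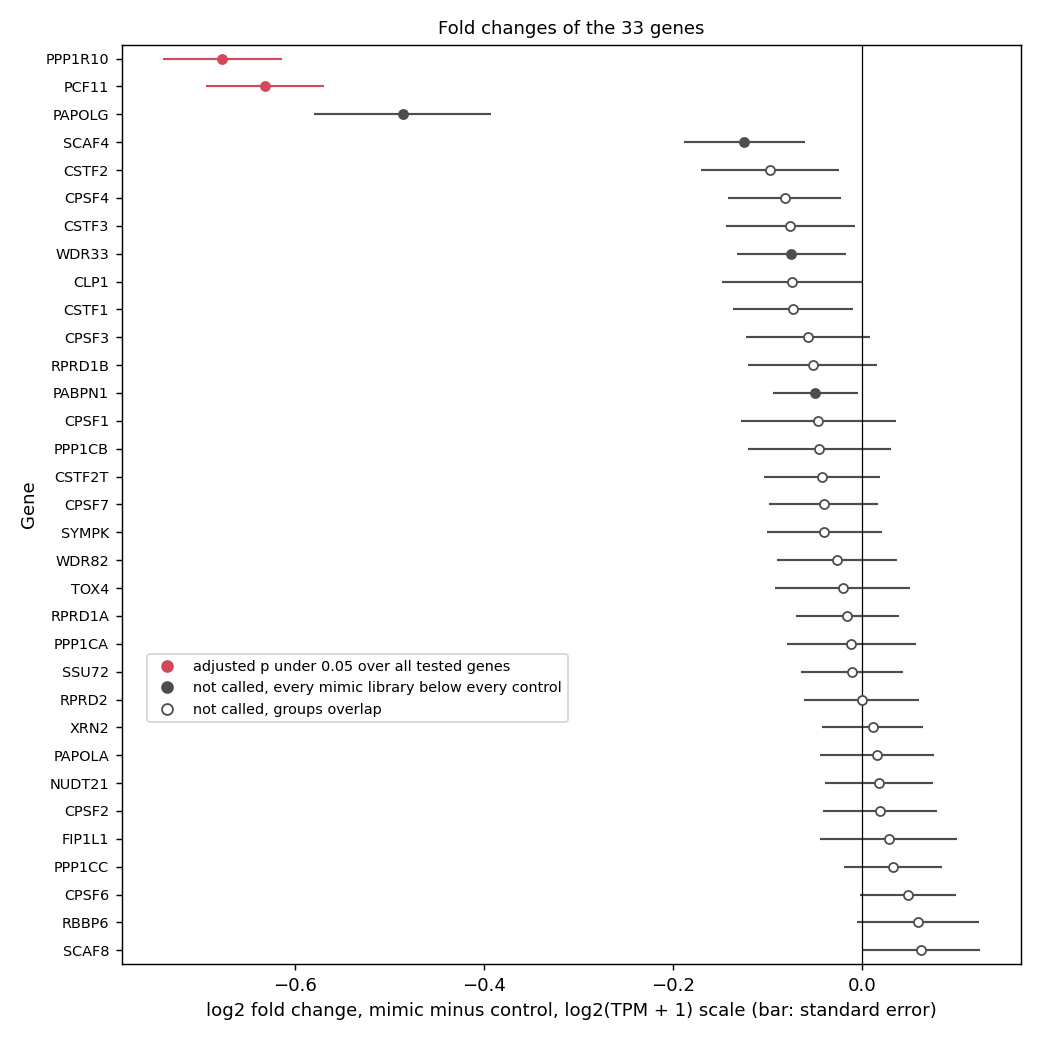
Log2 fold change, mimic minus control, with its standard error for the 33 members. Red points were called over all tested genes, grey filled points have no overlap between groups, and open points overlap; PPP1R10, PCF11 and PAPOLG lie at -0.68, -0.63 and -0.49 and the rest between -0.12 and 0.06.

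In control cells the members spanned 11.8 TPM (PAPOLG) to 269.6 TPM (PABPN1), and control libraries differed by a coefficient of variation of 1.60% (SSU72) to 8.05% (CSTF2). From the top the order was PABPN1, PPP1CA (229.4 ± 9.03), XRN2, then NUDT21 (139.6 ± 4.34) and PPP1CB (139.6 ± 7.92), which did not differ beyond their spread, and WDR82 (123.6 ± 4.46) and PPP1CC (123.0 ± 4.50), which did not either. From the bottom it was PAPOLG, then RPRD2 (24.8 ± 0.526), RPRD1B (24.9 ± 0.923), WDR33 (25.7 ± 0.751), CLP1 (25.9 ± 1.75) and CPSF4 (26.5 ± 0.482). In this order the control libraries of each of these 5 genes overlapped those of the next, while those of RPRD2 lay below all those of CPSF4. PCF11 ranked 27 of 33 and PPP1R10 16 in control cells, and by mimic means PCF11 lay below all members but PAPOLG. The summed TPM of the members was 2343 ± 69.9 in control and 2281 ± 26.8 in mimic libraries (n = 3), with overlap. The median within-group SD of a member was 0.07 on the log2 scale, against 0.10 over all tested genes. Control means of all tested genes ran from 0 to 24246 TPM, and the 2 sets were not matched for level. The median log2 fold change was -0.041 over the members and -0.017 over all tested genes, and 24 of 33 members lay below 0, against 56.6% of tested genes. With median-of-ratios scaling 19 of 33 and 48.6% did.

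Genes that work beside this machinery, 92 in 7 lists drawn up by function, gave 0 limma calls (Benjamini-Hochberg over all genes) in either direction, where 0.300% of tested genes were called lower and 0.132% higher. At an unadjusted p under 0.05, 13 were lower (14.1% against 7.64% of tested genes) and 1 higher (1.09% against 3.05%), SNRPA of the U1 snRNP. In 25 the mimic libraries lay below all control libraries (27.2% against 10.5%) and in 4 above (4.35% against 5.16%). The median log2 fold change was -0.060, and 70 of 92 were below 0, 76.1% against 56.6% of all tested genes. With median-of-ratios scaling 64 were (69.6% against 48.6%). The median within-group SD of these genes was 0.08 on the log2 scale, against 0.10 over all tested genes, again not matched for level. As the lists were drawn up with earlier results of these data known, nothing is read from these shares.

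The histone 3′ end processing list (9 genes) had 8 below 0 and a median of -0.10. Its gene with the largest change was CASP8AP2, which encodes FLASH, a factor that recruits the cutting complex to histone pre-mRNA. CASP8AP2 measured 23.1, 21.4 and 21.8 TPM in control and 16.6, 17.9 and 15.4 TPM in mimic libraries, with no overlap (log2 fold change -0.39, SE 0.07, limma adjusted p = 0.0702), and it was called only with a filter of 5 TPM. In nuclear RNA surveillance (10 genes, median -0.10, 8 below 0) the largest change was in ZCCHC8, a subunit of the exosome targeting complex, at 13.4 ± 0.962 and 10.3 ± 0.397 TPM (log2 fold change -0.35, SE 0.08, limma adjusted p = 0.108).

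Among other tailing enzymes and poly(A) binding proteins, all 11 fold changes were below 0, with a median of -0.08, and 10 were with median-of-ratios scaling. TENT4A, a nuclear enzyme that adds tails with mixed bases, had the largest change on the log2(TPM + 1) scale, with 18.6 ± 0.779 TPM against 14.4 ± 0.855 TPM under the mimic (n = 3), without overlap (log2 fold change -0.34, SE 0.07, limma adjusted p = 0.0886). By the ratio of mean TPM, PABPC1L was lower, at 0.689 times control against 0.778 for TENT4A, from a level of 1.46 ± 0.427 TPM in control (n = 3). PABPC1, the cytoplasmic poly(A) binding protein, measured 1526 ± 45.5 and 1520 ± 42.3 TPM.

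In Integrator (15 genes), which ends transcription of small nuclear RNAs and of paused genes, 13 were below 0. INTS5 had the largest change, -0.20 (SE 0.09, limma adjusted p = 0.494), with overlapping groups. INTS13 was nearly equal at -0.196 (SE 0.07, limma adjusted p = 0.334), and its mimic libraries lay below all control libraries. Among 22 pausing, elongation and polymerase-tail kinase genes, 13 were below 0. The largest change there was in CCNT1, the cyclin partner of CDK9, at -0.24 (SE 0.09, limma adjusted p = 0.381). CDK12, the kinase whose loss is known to bring early polyadenylation, measured 26.7 ± 1.36 and 27.7 ± 1.30 TPM. In the list of tail phosphatases and nuclear PP1 regulators (12 genes) the largest change was CDCA2, -0.17 (SE 0.07, limma adjusted p = 0.392). In the U1 snRNP list (13 genes), whose particle masks early sites, it was LUC7L, -0.23 (SE 0.08, limma adjusted p = 0.313).

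**Figure D4:**
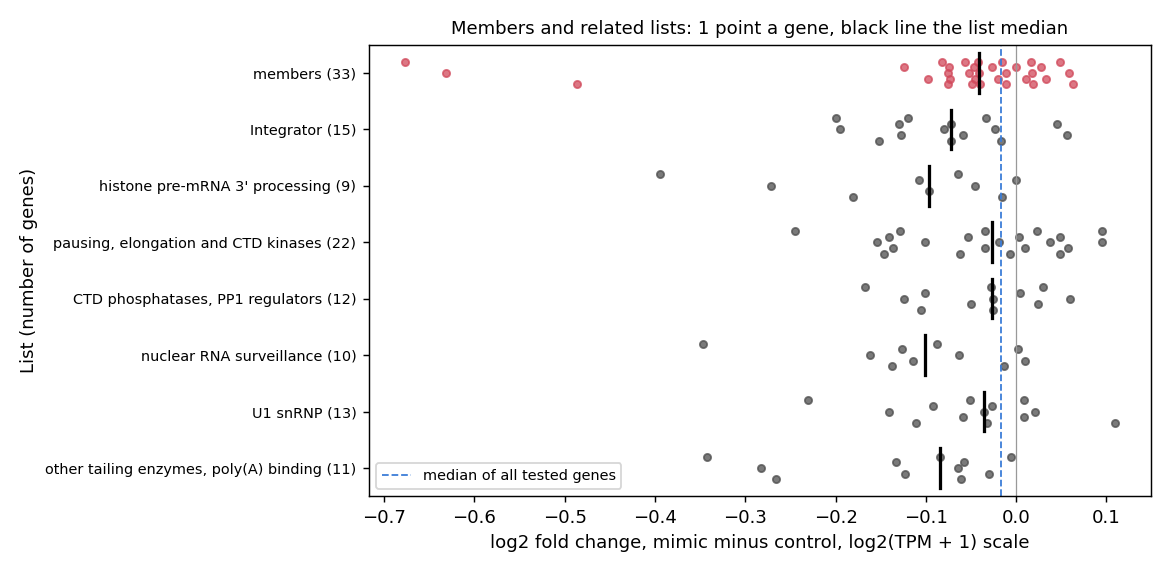
Log2 fold change of each gene (points) in the 33 members and 7 related lists, with the list median as a black line and the median of all tested genes, -0.017, as a dashed line. The medians of the 7 related lists lie between -0.10 and -0.03, and 0 of their 92 genes were called.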

How the data were processed

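RNA-seq libraries of transfected HUVECs were made from 500 ng of total RNA with mRNA enrichment and 13 PCR cycles, and sequenced from 1 end for 75 cycles (per the labels' protocols). The design text says 4 technical replicates went into each pooled RNA sample. The authors deposited 1 TPM table per library, per the file headers. The submitters' processing notes name hg38 and GRCh38.p13. For the aligner, the counter and the annotation, the tool is not given in the sources used here.

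Values were tested with limma 3.58.1 in R 4.3.3 (trend, group only) on log2(TPM + 1), over the 13680 genes that reached 1 TPM in 3 or more libraries, two-sided, with Benjamini-Hochberg adjustment and a threshold of 0.05. A fold change on this scale understates the change of low genes. The fit was tested on simulated data. Groups came from sample titles. Symbols were looked up by Ensembl ID, and gene models were those of GENCODE 29. Depth was estimated from low values, of which 74.8% to 75.7% were whole multiples of 1 read over the exon length within 0.02 reads. Other steps ran in Python 3.11.15 (pandas 2.3.3, scipy 1.17.1, matplotlib 3.10.9).

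Members and lists were chosen with earlier results of these data known. The rule named members called, those whose groups did not overlap and the largest change in each of 7 role groups, and in each related list the largest change. Others are named for their role, and INTS13 for a change close to that of INTS5.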

Additional observations from a re-analysis of the deposited data

How the results depend on the processing

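PPP1R10 was called lower in all 13 alternatives and PCF11 in 12, the exception being the replicate block (limma adjusted p = 0.0543), which left 1 member called lower. Members called higher stayed at 0, and none of the 16 genes named by rule changed sign. Over all genes, the 18 higher and 41 lower calls became 6 and 5 without the filter, 36 and 79 at 5 TPM, 10 and 10 if the prior had no trend, and 9 and 5 under the replicate block. Higher calls numbered 33 after median-of-ratios scaling and 34 after quantile scaling. Leaving out 1 library gave 6 to 22 higher and 6 to 27 lower calls, with 2 members called lower each time. Lower calls dropped by over 1.5 times whichever library was left out, and higher calls without control 1, 2 or 3 or mimic 1. The members' median log2 fold change ran from -0.061 (without control 1) to -0.0197 (without control 2), and was -0.0196 after median-of-ratios scaling. The 5 TPM filter called 1 related gene, CASP8AP2, and 3 members. That filter leaves 10625 genes, and no filter leaves 23872. Otherwise the cause was not tested. For the block, libraries with the same number correlated at 0.031, -0.087 and -0.11 in their deviations from group means. Control 1 correlated best with mimic 1, control 2 with mimic 3 and control 3 with mimic 2. Such weak correlations cannot show whether libraries with equal numbers share a culture or donor, which the labels do not say.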

Other observations

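The values here were chosen after the members' values were seen. MRPS18B is a mitochondrial ribosomal protein gene on the strand opposite to PPP1R10. Its start lies 903 bases from that of the PPP1R10 gene model, taken as the outermost annotated base. The promoter window shown for PPP1R10 uses a RefSeq start inside that model, and the distance from this RefSeq start was not measured. MRPS18B measured 75.8, 79.4 and 80.8 TPM in control and 70.4, 71.2 and 77.3 TPM in mimic libraries, with overlapping groups (log2 fold change -0.11, SE 0.06). Genes annotated as antisense took 0.365%, 0.374% and 0.371% of TPM in control libraries and 0.381%, 0.384% and 0.387% in mimic libraries. All 3 mimic libraries lay above the 3 controls (two-sided exact permutation p = 0.1, the smallest this design allows, and 0.4 after Benjamini-Hochberg adjustment over 4 gene classes). Long intergenic RNA genes took 0.339 ± 0.00706% and 0.350 ± 0.00999% (n = 3, exact permutation p = 0.3, adjusted 0.4).

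Tested genes that start within 5000 bases downstream of a tested protein-coding gene on the same strand numbered 1367. Of these, 1 was called higher and 0 lower by limma, where 0.132% and 0.300% of all tested genes were. By unadjusted p, 33 passed 0.05 as higher (2.41% against 3.05% of all tested genes) and 113 as lower (8.27% against 7.64%). Their median log2 fold change was -0.030, against -0.017 over all tested genes.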
